A study of Mus musculus with 26 samples.

Results

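The genes described here are 9 genes by which a B lymphocyte assembles and adjusts its antigen receptor or keeps its identity: Cd79a, Cd79b, Blk, Cd22, Cd72, Ms4a1, Tnfrsf13c, Pax5 and Spib. They were chosen by symbol with earlier results of these data known, and the value of each gene in a sample is the sum of the estimated counts of all its transcripts, out of 35975 genes with at least 1 listed transcript. All 9 passed the filter on low counts, which left 17063 genes for testing. They were followed in 26 bulk RNA-seq samples of mouse colon, over the days of tumour induction within each diet and between the diets, with the spread of the samples at day 70 given in full.

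The B cell receptor is a membrane immunoglobulin that signals through the paired chains encoded by Cd79a and Cd79b. Src-family kinases, Blk among them, phosphorylate these chains, whereas coreceptors with inhibitory motifs, such as those encoded by Cd22 and Cd72, restrain the signal. In the colon, B cells gather in lymphoid follicles and in structures that form during inflammation. Antibody-secreting plasma cells lie in the lamina propria and have largely switched off some of these genes, such as Pax5 and Ms4a1.

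All samples came from wild-type C57BL/6J male mice with a starting age of about 10 weeks, fed either a standard diet or a diet with GW3965, an agonist of the liver X receptors (LXR), which are sterol-sensing nuclear receptors. The day 22, day 43 and day 70 groups had 3 samples per diet and received the carcinogen azoxymethane (AOM) at 10 mg/kg, followed by cycles of dextran sulfate sodium (DSS) in drinking water, which injures the colonic lining; days are counted from the AOM injection. The day 0 groups had 4 samples per diet, received neither AOM nor DSS, and had been on their diet for 22 days (replicates 1 and 2) or 43 days (replicates 3 and 4). By the study's methods the biopsies were from the distal colon and included tumour areas, and each is a mixture of cell types.

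Total estimated counts ranged from 18195345 to 41522204 per sample. Ribosomal protein genes took 10.0% to 18.6% of counts in the 6 samples of day 43 and 3.96% to 10.7% in the other samples, and the library of standard diet day 43 replicate 1 had an RNA integrity number (RIN) of 2.6. Within a diet, day 22 and day 43 samples shared 1 cage and day 0 samples another, so that diet and cage cannot be told apart at those days. The 6 samples of day 70 came from 6 cages, none of which held samples of other days. Treatment and cage therefore cannot be told apart between day 0 and any later day. The day 70 samples had 70 days on their diet, which no day 0 sample had. GW3965 diet day 0 replicate 4 has a diet label of standard but a title of GW3965, and was placed by the title. The summed CPM (TMM-normalized counts scaled to a common library size) of 10 colon epithelial markers was between 2815 and 17223 in every sample, and the summed CPM of 6 stratified epithelium markers, which should be near 0 in colon, was 2.16 to 3.63 at day 0, 3.44 to 23.5 at day 22, 161 to 3719 at day 43 and 4.60 to 14055 at day 70.

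The 9 genes lie on 6 chromosomes of the GRCm38 assembly. Cd79a (ENSMUSG00000003379) is at chr7:24897381-24902197 on the plus strand and has a single transcript in the annotation. The other 8 are on minus strands, with Cd79b at chr11:106311341-106314762, Blk at chr14:63372836-63417037, Cd22 at chr7:30865402-30880342, Cd72 at chr4:43446462-43454628, Ms4a1 at chr19:11249675-11266241, Tnfrsf13c at chr15:82221743-82224369, Pax5 at chr4:44524757-44710487 and Spib at chr7:44525993-44532071. Cd72 overlaps Tesk1 on the opposite strand, and Cd22, Ms4a1 and Pax5 overlap antisense genes, so that reads of these 4 genes could be shared with their partners; whether quantification used strand is not given in the sources used here.

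Most genes drew their counts from 1 transcript. Over all samples Cd79b-202 carried 90.8% of the Cd79b counts, Blk-201 97.1% of those of Blk, Ms4a1-201 95.7% of those of Ms4a1, Pax5-201 95.7% of those of Pax5 and Spib-201 92.0% of those of Spib. Tnfrsf13c-201 carried 80.9% of the Tnfrsf13c counts. Cd22 spread over 16 annotated transcripts, with 48.9% of counts on Cd22-203, and 4 coding transcripts of Cd72 took between 19.4% and 27.8% each.

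RefSeq promoter windows on GRCm38.p6, from 250 bases before to 50 bases after the annotated start, were found for 6 of the 9 genes and not for Cd79b, Ms4a1 and Blk. Because the 9 genes varied together across samples, the windows were searched on both strands for 3 motifs of factors known from B cell promoters: the octamer ATGCAAAT, an Ets core GAGGAA and a core motif of EBF1. No window of the 6 held the octamer, which 1.74% of all 32851 windows held. The Ets core was present in 2 of the 6, Cd79a and Cd72, and in 28.3% of all windows; the EBF1 core was present in 1 of the 6, Cd22, and in 0.904% of all windows. A match is a description of the letters and not of binding, and its absence says only that these letters are not in the window. The windows with a match are printed 5′ to 3′ on the gene's strand with the match in capitals, and the window of Pax5, whose log2 difference between the diets at day 70 was the largest of the 9, is printed with no match. Their positions are chr7:24897247-24897546 (plus strand) for Cd79a, chr4:43454577-43454876 (minus strand) for Cd72, chr7:30878979-30879278 (minus strand) for Cd22 and chr4:44710645-44710944 (minus strand) for Pax5. The Cd22 window stands at the start of Cd22-201, which carried 13.2% of the Cd22 counts.
Cd79a: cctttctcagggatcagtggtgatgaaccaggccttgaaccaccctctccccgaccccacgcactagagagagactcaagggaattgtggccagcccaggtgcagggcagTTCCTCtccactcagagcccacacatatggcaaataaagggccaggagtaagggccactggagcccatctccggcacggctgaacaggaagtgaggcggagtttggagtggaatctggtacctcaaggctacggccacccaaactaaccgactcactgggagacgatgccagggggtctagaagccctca
Cd72: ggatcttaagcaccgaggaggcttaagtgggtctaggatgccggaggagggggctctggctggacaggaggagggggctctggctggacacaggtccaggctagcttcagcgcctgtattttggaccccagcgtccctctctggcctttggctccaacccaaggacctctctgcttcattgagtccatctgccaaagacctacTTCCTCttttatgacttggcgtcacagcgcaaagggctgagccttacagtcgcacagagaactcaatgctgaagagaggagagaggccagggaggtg
Cd22: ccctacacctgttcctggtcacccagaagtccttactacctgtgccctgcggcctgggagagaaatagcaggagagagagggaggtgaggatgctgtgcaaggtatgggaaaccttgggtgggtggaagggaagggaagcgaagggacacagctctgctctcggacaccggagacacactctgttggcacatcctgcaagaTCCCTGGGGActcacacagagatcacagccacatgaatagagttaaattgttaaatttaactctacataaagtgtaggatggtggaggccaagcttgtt
Pax5: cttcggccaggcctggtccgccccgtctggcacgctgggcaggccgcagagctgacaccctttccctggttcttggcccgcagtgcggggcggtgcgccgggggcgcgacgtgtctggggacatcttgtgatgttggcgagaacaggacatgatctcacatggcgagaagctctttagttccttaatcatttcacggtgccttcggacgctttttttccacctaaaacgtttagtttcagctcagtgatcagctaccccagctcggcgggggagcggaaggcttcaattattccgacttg
Distances here are counted from the RefSeq start of each window. In Cd79a the reverse complement of the Ets core lies 140 to 135 bases before that start. In Cd72 it lies 47 to 42 bases before it, and in Cd22 the EBF1 core lies 49 to 40 bases before it. The single Cd79a transcript counted here begins at 24897381, upstream of the RefSeq start and nearer to the motif. The Pax5 window lies wholly upstream of the Pax5 gene as placed above.

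Levels of all 9 genes were moderate without treatment, high at day 22 and, on the standard diet, lowest of all at day 70. Cd79a, a signalling chain of the receptor, illustrates the course. On the standard diet its level was 15.4, 11.8, 75.1 and 22.3 CPM in the 4 samples of day 0, then 86.4, 189 and 137 CPM at day 22, 12.4, 111 and 78.6 CPM at day 43, and 2.47, 4.27 and 2.45 CPM at day 70. On the GW3965 diet it was 36.1, 41.6, 33.3 and 20.0 CPM at day 0, 79.8, 143 and 119 CPM at day 22, 123, 181 and 94.0 CPM at day 43, and 17.9, 113 and 7.52 CPM at day 70. The day 22 samples lay above all day 0 samples in both diets, whereas the 3 standard diet samples of day 70 lay below every other sample of the series.

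Across the 9 genes the order of groups was similar. Standard diet day 70 had the lowest mean for 9 of 9 genes, and standard diet day 22 or GW3965 diet day 43 had the highest. Of the 63 pairs of neighbouring groups in the 9 orders, 11 did not overlap in their samples, and 8 of these 11 set standard diet day 70 apart from the group above it. The levels of the other neighbouring groups overlapped. The share of all genes with such an order is not given here, so these counts describe the 9 genes only. In single pairs, standard diet day 70 lay below standard diet day 0 without overlap in 19.3% of all genes. It lay below standard diet day 43 in 25% and below GW3965 diet day 70 in 10.5%. In bulk samples, fewer B cells and less RNA per B cell cannot be told apart.

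**Figure D1:**
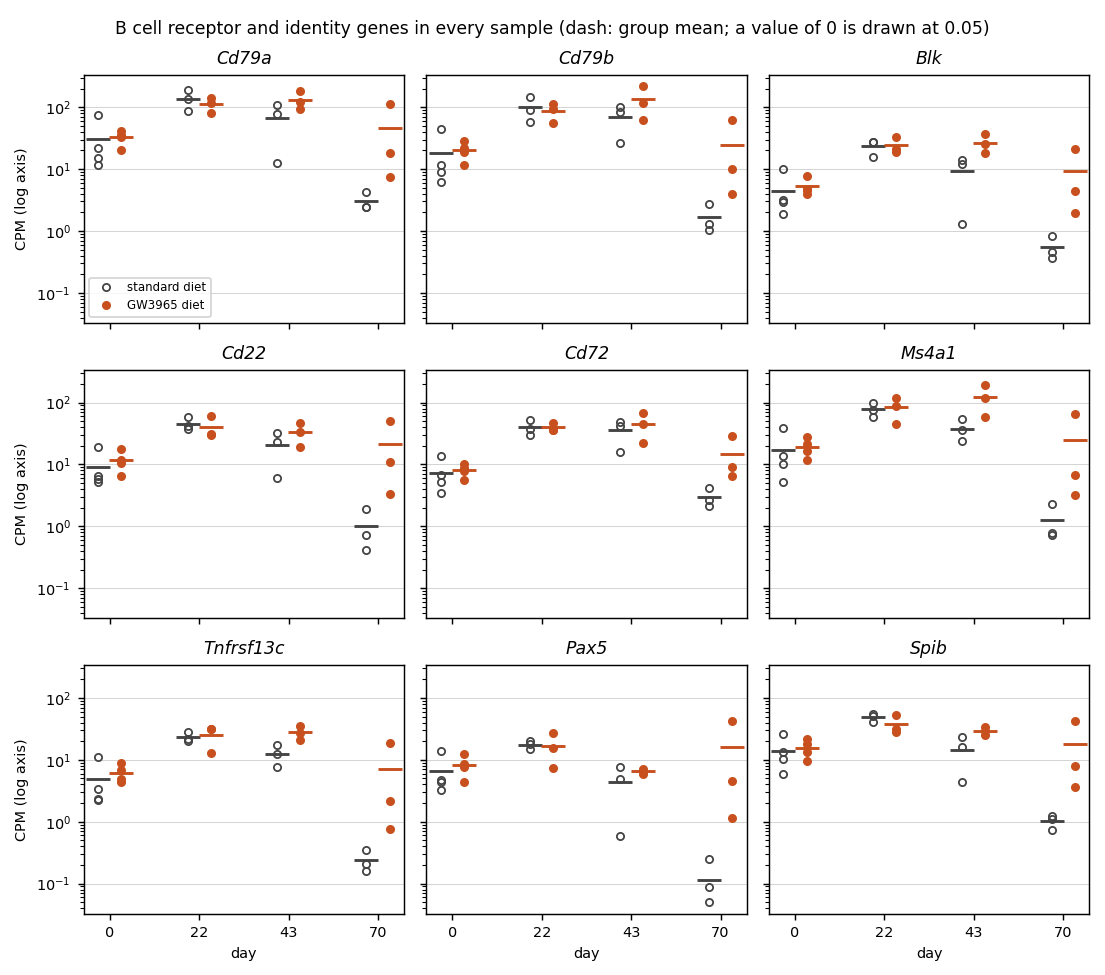
Level of each of the 9 genes (CPM, log axis) by day for the standard diet (open circles) and the GW3965 diet (filled circles), 1 point per sample with a dash at the group mean. For Cd79a the 3 standard diet samples of day 70 lie between 2.45 and 4.27 CPM and the 3 GW3965 diet samples between 7.52 and 113 CPM.

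On the scale of TPM, which divides by transcript length and so allows genes to be compared, the Cd79a and Cd79b chains led the 9 genes at day 22 on both diets and Pax5 was last. On the standard diet at day 22 mean TPM was 113 ± 38.0 (SD, n = 3) for Cd79a and 102 ± 42.1 (SD, n = 3) for Cd79b, which did not differ beyond their spread. Cd72 followed with 37.1 ± 7.46 (SD, n = 3), Ms4a1 with 27.8 ± 6.53 (SD, n = 3) and Spib with 24.6 ± 2.20 (SD, n = 3). Pax5, a transcription factor that commits cells to the B lineage, had 2.80 ± 0.464 TPM (SD, n = 3). At standard diet day 70 the mean TPM was 3.39 ± 1.37 for Cd72, 3.12 ± 1.00 for Cd79a and 2.13 ± 1.10 for Cd79b (SD, n = 3 each), and the other 6 genes were between 0.0494 and 0.586 TPM.

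The first DSS cycle was addressed by comparing day 22 with day 0 within each diet. All 9 genes had positive log2 fold changes in both diets, and 1 of the 9, the coreceptor gene Cd72, passed the test in each. In standard diet samples Cd72 was at 3.49, 5.29, 13.5 and 6.88 CPM at day 0 and at 30.0, 53.1 and 37.4 CPM at day 22. The groups did not overlap, and the log2 fold change was 2.30 ± 0.51 (SE; edgeR adjusted p = 0.00877). On the GW3965 diet Cd72 went from 8.84, 10.2, 7.77 and 5.72 CPM at day 0 to 36.7, 47.0 and 35.4 CPM at day 22, and rose by 2.08 ± 0.51 on the log2 scale (SE; edgeR adjusted p = 0.0108). The 1 gene of 9 stands beside 6.19% of all tested genes called higher on the standard diet and 9.13% on the GW3965 diet, which is near this background.

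The other 8 genes shared the direction without passing the adjusted threshold. For the standard diet their log2 fold changes ran from 1.56 ± 0.86 (SE) for Pax5 to 2.30 ± 0.73 (SE) for Blk, with edgeR adjusted p from 0.0566 to 0.322, and on the GW3965 diet from 1.22 ± 0.87 for Pax5 to 2.10 ± 0.74 for Blk, with edgeR adjusted p from 0.0671 to 0.406. The samples of day 22 lay above those of day 0 for 9 of 9 genes on the standard diet, where 15.9% of all genes did so, and for 8 of 9 on the GW3965 diet, where 25.2% did so. The exception was Pax5, at 15.6, 27.0 and 7.43 CPM on the GW3965 diet at day 22 against 8.60, 12.4, 7.59 and 4.42 CPM at day 0. The spread at day 0 on the standard diet came mostly from replicate 3, which had the highest value of its group for 9 of 9 genes, among them 39.4 CPM of Ms4a1 against 5.19 to 13.8 CPM in the other samples. Without that sample 8 of the 9 genes were called on the standard diet, where the share of all genes called in the same fit is not given here. Without the ribosomal term in the model 5 of 9 were called on either diet, beside 7.56% of all genes on the standard and 13.7% on the GW3965 diet.

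Other leukocyte genes were also higher at day 22. Of 12 T cell genes, 7 passed on the standard and 11 on the GW3965 diet, and of 6 pan-leukocyte genes all 6 passed on both; the summed pan-leukocyte CPM was 639 to 1230 at standard diet day 22 against 136 to 383 at day 0. Relative to 100 CPM of the pan-leukocyte list, the summed CPM of the 9 B cell genes was 43.1 to 58.0 at standard diet day 22 and 30.4 to 66.3 at day 0, and 34.6 to 58.2 at GW3965 diet day 22 against 52.6 to 74.5 at day 0. On this scale the groups overlapped in both diets. Per 1 CPM of the T cell list, the sum at standard diet day 22 was 2.61 to 2.85. The standard diet samples of day 0, at 1.96 to 4.02, overlapped with it. On the GW3965 diet the sum was 1.78 to 3.18 at day 22, below all samples of day 0, which were at 3.71 to 6.53.

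Among 24 partners of the receptor, 8 were called higher and none lower at day 22 on the standard diet, and 11 were called higher and none lower on the GW3965 diet. Those with the smallest p on the standard diet were Vav1, a guanine nucleotide exchange factor (log2 fold change 1.48 ± 0.33, SE), Pik3cd, a catalytic subunit of phosphoinositide 3-kinase (2.11 ± 0.49), and Lyn, a Src-family kinase (1.40 ± 0.33), which myeloid cells express as well. Of the 13 B cell regulators, 3 were called higher on the standard and 5 on the GW3965 diet. Sema4d, a ligand of the Cd72 protein, rose by 1.53 ± 0.37 on the standard diet (SE; edgeR adjusted p = 0.0144) and by 1.21 ± 0.38 on the GW3965 diet (SE; edgeR adjusted p = 0.0402).

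Between day 22 and day 43 no member passed the test on either diet. On the standard diet all 9 log2 fold changes were negative, from -2.27 to -0.93, with none under an unadjusted p of 0.05, and 0% of all genes were called by edgeR. On the GW3965 diet they ran from -0.65 to -0.08, again with none under an unadjusted p of 0.05, while 0.147% of all genes were called. These fitted values include the ribosomal term, and 28 of 126 values under alternatives changed sign. Mean CPM, which does not include the term, was higher at day 43 than at day 22 for Cd79a, Cd79b, Blk, Cd72, Ms4a1 and Tnfrsf13c. It was lower for Cd22, Pax5 and Spib. For Cd79b it was 88.2 CPM at day 22 and 134 CPM at day 43, and for Pax5 16.7 and 6.56 CPM. DESeq2 called none of the 9 in either comparison. Standard diet day 43 replicate 1, the sample with a RIN of 2.6, was the lowest of its group for all 9 genes. It held 12.4 CPM of Cd79a, 1.31 CPM of Blk and 0.591 CPM of Pax5, against 78.6 and 111, 12.2 and 14.2, and 4.98 and 7.71 CPM in the other samples of its group, and its Ms4a1 level of 24.4 CPM stood against 35.6 and 54.3 CPM.

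At the end of the series, day 70 was compared with day 0 within each diet. Among standard diet samples 8 of the 9 genes fell, by 3.00 to 5.71 on the log2 scale, where 15.1% of all tested genes were called lower. The samples of day 70 lay below all samples of day 0 for the same 8 genes, as they did for 19.3% of all genes. On the GW3965 diet none of the 9 passed: the log2 fold changes ran from 0.14 to 1.05, none had an unadjusted p under 0.05 in edgeR, DESeq2 called none, and 21.8% of all genes were called in either direction.

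The signalling chains fell together on the standard diet. Cd79b was at 9.09, 6.09, 44.9 and 11.6 CPM at day 0 and at 1.05, 2.74 and 1.31 CPM at day 70, a log2 fold change of -3.39 ± 0.86 (SE; edgeR adjusted p = 0.00522). Cd79a fell by 3.34 ± 0.87 on the log2 scale (SE; edgeR adjusted p = 0.00612). For the receptor kinase Blk, 3.20, 1.89, 9.87 and 2.92 CPM at day 0 stood against 0.368, 0.827 and 0.465 CPM at day 70, with a log2 fold change of -3.00 ± 0.85 (SE; edgeR adjusted p = 0.0104). No sample of day 70 reached the lowest sample of day 0 for any of these 3 genes.

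The inhibitory coreceptors parted at this comparison. Cd22, whose product binds sialic acids on neighbouring glycans, was at 5.23, 5.90, 19.2 and 6.54 CPM at day 0 and at 0.421, 1.92 and 0.719 CPM at day 70, and fell by 3.17 ± 0.84 (SE; edgeR adjusted p = 0.00678). Cd72 was at 2.10, 4.18 and 2.66 CPM at day 70 and overlapped its day 0 samples, the lowest of which was 3.49 CPM. Its log2 fold change was -1.30 ± 0.52 (SE; edgeR adjusted p = 0.0596). The difference between the 2 genes was not tested.

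Ms4a1, which encodes the B cell surface protein CD20, had 10.3, 5.19, 39.4 and 13.8 CPM at day 0 and 0.789, 2.31 and 0.719 CPM at day 70, with a log2 fold change of -3.75 ± 0.90 (SE; edgeR adjusted p = 0.00378). Tnfrsf13c, the receptor for the survival factor BAFF, had 2.21, 3.40, 11.3 and 2.33 CPM at day 0 and 0.158, 0.348 and 0.211 CPM at day 70. It fell by 4.29 ± 0.94 (SE; edgeR adjusted p = 0.0021), although its day 70 values rest on 3, 8 and 5 counts.

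Of the transcription factors, Pax5 had 4.43, 3.21, 14.1 and 4.80 CPM at day 0 and 0, 0.0871 and 0.254 CPM at day 70, that is 0, 2 and 6 counts. Its log2 fold change was -5.71 ± 1.23 (SE; edgeR adjusted p = 0.0018), the largest of the 9 in size and the one with the widest error. Spib, an Ets-family factor of B cells that M cells and plasmacytoid dendritic cells also use, was at 10.1, 5.90, 26.3 and 13.5 CPM at day 0 and 1.10, 0.740 and 1.23 CPM at day 70, a log2 fold change of -3.76 ± 0.76 (SE; edgeR adjusted p = 0.00111). Of 7 other M cell genes tested, 4 rose on the standard diet between day 0 and day 70 (Marcksl1, Pglyrp1, Tnfaip2 and Ccl9) and 1, Sox8, fell; the summed CPM of the list was 280 to 384 at day 0 and 988 to 1155 at day 70. The defining M cell marker Gp2 was too low to be tested, at 0 to 0.424 CPM at day 0 and 0 to 0.0845 CPM at day 70. Of 5 plasmacytoid dendritic cell genes 2 fell, Klk1 and Pacsin1, and the summed CPM of that list was 521 to 899 at day 0 and 112 to 176 at day 70, with Siglech at 0.991 to 3.45 CPM and 0.368 to 0.846 CPM (edgeR adjusted p = 0.0624). The part of these cells in the level of Spib was not tested.

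Between day 43 and day 70 the 9 genes had no calls in the model with the ribosomal term, and 0% of all genes were called on either diet. On the standard diet all 9 log2 fold changes were negative, from -2.51 ± 1.01 (SE) for Cd72 to -6.34 ± 1.95 (SE) for Pax5. All 9 had an unadjusted p under 0.05 in edgeR, as had 1590 of the 17063 genes tested. Their edgeR adjusted p ran from 0.419 to 0.508, and DESeq2 called none of the 9. The samples of day 70 lay below those of day 43 for 9 of 9 genes, as for 25% of all genes. Without the ribosomal term all 9 were called lower on the standard diet, beside 26.7% of all genes, and 4 of 9 (Ms4a1, Cd72, Cd79b and Tnfrsf13c) on the GW3965 diet, beside 17.9%. The ribosomal share was 14.4% to 18.6% at standard diet day 43 and 4.57% to 6.66% at standard diet day 70, so that the term and the day moved together.

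**Figure D2:**
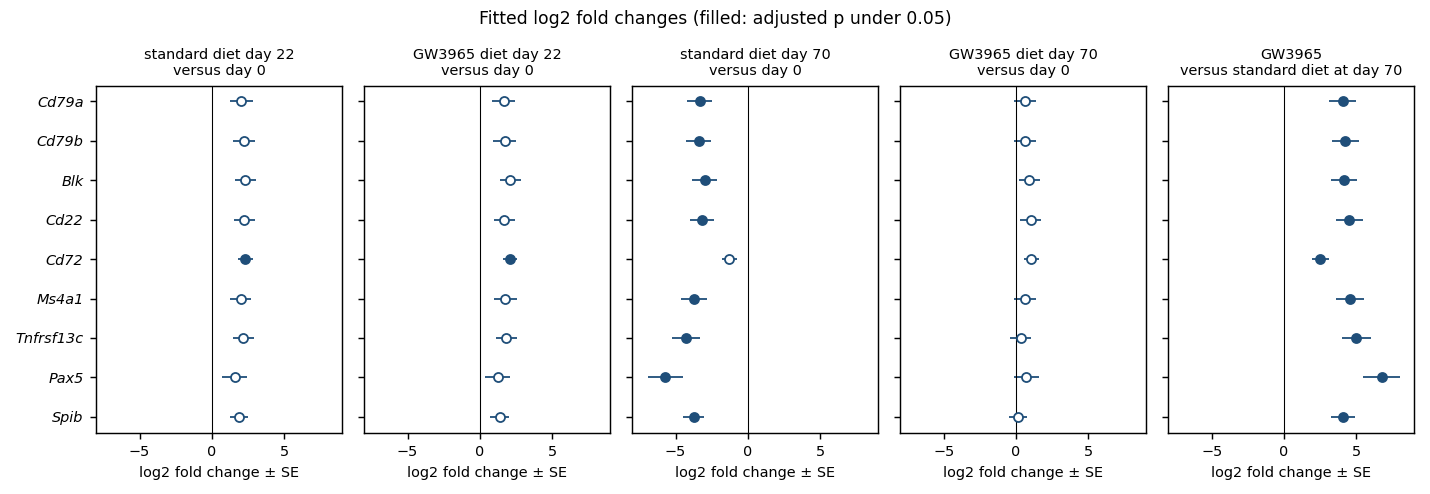
Fitted log2 fold changes with standard errors for the 9 genes in 5 comparisons; filled points have an edgeR adjusted p under 0.05. At standard diet day 70 against day 0, 8 points are filled on the negative side, and between the diets at day 70 all 9 are filled on the positive side, from 2.51 for Cd72 to 6.74 for Pax5.

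The diets were compared at each day. At day 70 the GW3965 diet had higher levels of all 9 genes, by 2.51 to 6.74 on the log2 scale, where 1.75% of all tested genes were called higher. At the earlier days none of the 9 was called: at day 0 the log2 differences ran from 0.08 to 0.38 (0.0293% of all genes called), at day 22 from -0.34 to 0.03 (0.135% called) and at day 43 from 0.27 to 1.90 (0.0293% called). None of the 9 had an unadjusted p under 0.05 in edgeR at day 0 or day 22. At day 43, 2 did (Ms4a1 and Blk), beside 1476 of the 17063 genes tested. DESeq2 called none of the 9 at these days.

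At day 70 no standard diet sample reached the lowest GW3965 diet sample for any of the 9 genes, a pattern that 10.5% of all genes showed. Pax5 was at 4.56, 41.9 and 1.17 CPM on the GW3965 diet, against 0.254 CPM in the highest standard diet sample, with a log2 difference of 6.74 ± 1.30 (SE; edgeR adjusted p = 0.0186). Tnfrsf13c was at 2.20, 18.5 and 0.777 CPM against at most 0.348 CPM, with a log2 difference of 4.99 ± 1.00 (SE; edgeR adjusted p = 0.0212). Ms4a1 was at 6.76, 64.3 and 3.25 CPM against at most 2.31 CPM, and the log2 difference was 4.56 ± 0.97 (SE; edgeR adjusted p = 0.0267). In each of the 3 genes replicate 2 of the GW3965 diet was far above the other samples and replicate 3 was the nearest to the standard diet.

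Of the coreceptors, Cd22 was at 11, 51.1 and 3.32 CPM on the GW3965 diet and differed by 4.52 ± 0.92 on the log2 scale (SE; edgeR adjusted p = 0.0238). Cd72, at 9.16, 28.9 and 6.61 CPM, showed the smallest difference of the 9, 2.51 ± 0.58 (SE; edgeR adjusted p = 0.0353). The signalling chain Cd79b, at 9.88, 61.1 and 3.96 CPM, differed by 4.21 ± 0.93 (SE; edgeR adjusted p = 0.0298) and its partner Cd79a by 4.04 ± 0.94 (SE; edgeR adjusted p = 0.0357). Blk was at 4.40, 21.2 and 1.94 CPM, and Spib at 7.93, 43.1 and 3.67 CPM, with log2 differences of 4.14 ± 0.92 and 4.07 ± 0.80 (SE; edgeR adjusted p = 0.0298 and 0.0197).

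The call at day 70 depended on single samples. None of the 9 was called without standard diet replicate 1 or without standard diet replicate 3, 1 was called without standard diet replicate 2, and 4 (Pax5, Spib, Cd22 and Tnfrsf13c) without GW3965 diet replicate 2; the log2 differences kept their sign and lay between 1.59 and 8.02 over these fits. A fit on the 6 samples of day 70 alone called none of the 9 (edgeR adjusted p = 0.418 for each), and DESeq2 on all samples called 9. The shares of all genes called in these fits are not given here.

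Whether the change from day 0 to day 70 itself differed between the diets was tested as an interaction. The 9 interaction terms ran from 2.35 ± 0.73 (SE) for Cd72 to 6.43 ± 1.49 (SE) for Pax5. All 9 had an unadjusted p under 0.05 in edgeR, as had 2169 of the 17063 genes tested. None of the 9 passed the adjusted threshold (edgeR adjusted p from 0.148 to 0.212), and 0% of all genes were called. DESeq2 called 8 of the 9, and edgeR called 9 of 9 without GW3965 diet day 70 replicate 3. The shares of all genes called by DESeq2 and by that fit are not given here, and the 0% is that of the main fit. For the change from day 43 to day 70 the terms ran from 1.99 ± 0.75 (SE) for Cd72 to 6.47 ± 1.55 (SE) for Pax5. Here edgeR called none of the 9 (edgeR adjusted p from 0.131 to 0.295) and 0.0176% of all genes. All 9 had an unadjusted p under 0.05 in edgeR, as had 2752 of the 17063 genes tested, and DESeq2 called 4 of the 9. Between day 0 and day 70 a fall was called on the standard diet and no change on the GW3965 diet. At the adjusted threshold the change was thus not shown to differ between the diets. The sign of most GW3965 diet changes rested on replicate 2, as described below.

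The 3 GW3965 diet samples of day 70 differed strongly from each other. Replicate 2 was above replicate 1 by 3.15-fold for Cd72 to 9.51-fold for Ms4a1, and above replicate 3 by 4.37-fold for Cd72 to 35.9-fold for Pax5. The lowest GW3965 diet sample exceeded the highest standard diet sample by a factor of 1.41 for Ms4a1 to 4.60 for Pax5. The 3 standard diet samples were closer together, with replicate 2 the highest for Cd79a, Cd79b, Blk, Cd22, Cd72, Ms4a1 and Tnfrsf13c and replicate 3 for Pax5 and Spib. Without GW3965 diet replicate 2, 8 of the 9 genes had negative log2 fold changes between day 0 and day 70 on the GW3965 diet and Tnfrsf13c was called lower (-1.97; edgeR adjusted p = 0.0322).

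Marker genes of other tissues and cells moved with this spread. The stratified epithelium list summed to 4.60 CPM in GW3965 diet replicate 2, near its level at day 0, and to 14055 and 12862 CPM in replicates 1 and 3, whereas the standard diet samples held 2990, 3809 and 3577 CPM. The skeletal muscle list summed to 17843 CPM in GW3965 diet replicate 1 and to 10.0 to 716 CPM in the other samples of day 70. All 6 stratified epithelium genes were called higher at day 70 than at day 0 in both diets, and none was called between the diets at day 70. The summed pan-leukocyte CPM was 811 in GW3965 diet replicate 2, 318 and 319 in the other GW3965 diet samples and 127 to 228 on the standard diet, and the T cell list summed to 68.4, 139 and 35.7 CPM on the GW3965 diet against 11.1 to 26.8 CPM. The part of these tissues and cells in the result was not tested.

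Set against the leukocyte genes of the same sample, the 9 genes were still lowest at standard diet day 70. Per 100 CPM of the pan-leukocyte list their sum was 6.66, 7.64 and 7.59 CPM there, 23.2, 54.6 and 10.1 CPM at GW3965 diet day 70, and 30.4 to 66.3 CPM at standard diet day 0. Per 1 CPM of the T cell list it was 0.467 to 0.763 CPM at standard diet day 70, 0.902 to 3.19 CPM at GW3965 diet day 70 and 1.96 to 4.02 CPM at standard diet day 0. On either scale the samples of standard diet day 70 lay below all those of GW3965 diet day 70. The latter overlapped with standard diet day 0 through replicate 2 alone, and replicates 1 and 3 lay below every sample of standard diet day 0. At GW3965 diet day 0 the sum was 52.6 to 74.5 CPM on the pan-leukocyte scale and 3.71 to 6.53 CPM on the T cell scale. On the T cell scale all samples of GW3965 diet day 70 lay below those of GW3965 diet day 0.

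**Figure D3:**
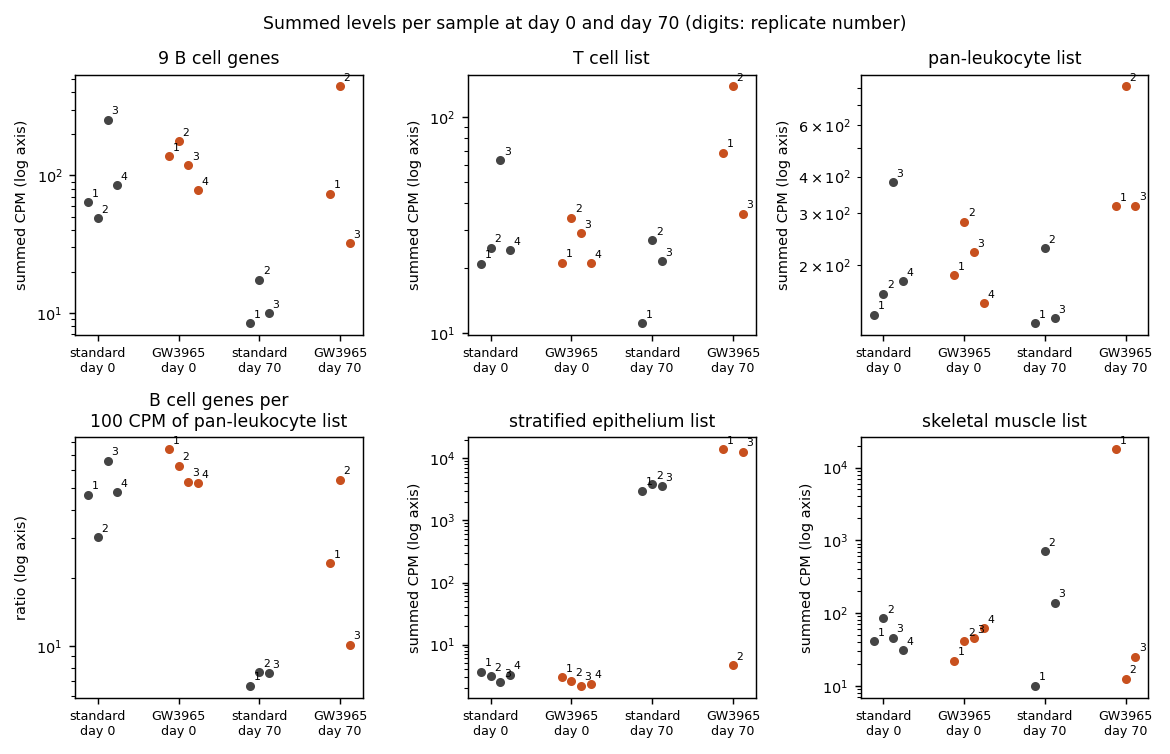
Summed CPM of the 9 B cell genes and of marker lists in each sample of day 0 and day 70 (log axes; digits give the replicate), with the B cell sum per 100 CPM of the pan-leukocyte list at lower left. GW3965 diet day 70 replicate 2 has the highest B cell sum, 443 CPM, and 4.60 CPM of stratified epithelium genes, where the other 5 samples of day 70 have 2990 to 14055 CPM.

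Further genes of the pathway followed only in part. Of the 24 receptor partners, 7 were called higher and none lower with GW3965 at day 70 (median log2 difference 1.10, against 0.02 over all genes tested), and on the standard diet 8 fell and 1 rose between day 0 and day 70 (median -0.14, against 0.03). Those with the smallest p in the diet comparison were the complement receptor Cr2, at 0 to 0.296 CPM on the standard diet and 1.45 to 40.2 CPM on the GW3965 diet (log2 difference 7.00 ± 1.24, SE; edgeR adjusted p = 0.0182), and the immunoglobulin heavy chain genes Ighd (5.33 ± 0.99; edgeR adjusted p = 0.0182) and Ighm (3.89 ± 0.75; edgeR adjusted p = 0.0188). Ighm is also read in IgM plasma cells, and its standard diet samples spanned 5.83 to 41.5 CPM at day 70.

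Of the 13 B cell regulators, 4 were called higher with GW3965 at day 70 (Ebf1, Ikzf3, Bach2 and Ikzf1) and none lower, with a median log2 difference of 2.14. Ebf1, which acts upstream of Pax5, differed by 2.30 ± 0.46 (SE; edgeR adjusted p = 0.0224), although its samples overlapped, at 1.79 to 3.48 CPM on the standard and 3.36 to 19.7 CPM on the GW3965 diet. In standard diet samples 4 regulators fell and 2, Tcf3 and Bcl11a, rose between day 0 and day 70. Other cell types express these 2 genes and also regulators called higher with GW3965, and the part of such cells was not tested. Between day 0 and day 22 Ebf1 changed by 0.34 ± 0.41 on the standard and 0.08 ± 0.42 on the GW3965 diet (log2, SE). Neither change was called (edgeR adjusted p = 0.715 and 0.937). The coactivator Pou2af1 differed between the diets by 2.80 ± 0.85 (SE; edgeR adjusted p = 0.0855).

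The ligand genes Tnfsf13b, Tnfsf13 and Sema4d were not called between the diets at day 70. The list of 9 further genes of the BAFF and APRIL system leaves out the BAFF receptor gene Tnfrsf13c, which was called as given above. None of the 9 genes of this list was called between the diets at day 70, with a median log2 difference of 0.32. Tnfsf13b, which encodes BAFF, was at 7.20 to 8.62 CPM on the standard and 9.40 to 21.7 CPM on the GW3965 diet (log2 difference 0.91 ± 0.38, SE; edgeR adjusted p = 0.206), and Tnfsf13, which encodes APRIL, at 16 to 19.8 CPM and 10.4 to 23.1 CPM (-0.06 ± 0.25; edgeR adjusted p = 0.922). The other receptors of these ligands, Tnfrsf13b and Tnfrsf17, gave log2 differences of 2.45 ± 0.67 and 1.20 ± 1.02 (SE; edgeR adjusted p = 0.0612 and 0.539). Sema4d was at 40.6 to 63.8 CPM on the standard and 87.0 to 106 CPM on the GW3965 diet (log2 difference 0.88 ± 0.39, SE; edgeR adjusted p = 0.234), and on the GW3965 diet it rose between day 0 and day 70 by 1.55 ± 0.37 (SE; edgeR adjusted p = 0.00557).

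Among other cell types, 3 of 12 T cell genes were called higher with GW3965 at day 70 (Cd247, Cd4 and Cd28), with a median log2 difference of 2.30 over the list, as were 1 of 9 plasma cell genes, Prdm1, and 1 of 6 pan-leukocyte genes, Ptprc. None of 8 myeloid, 7 M cell and 5 plasmacytoid dendritic cell genes tested was called. Of 10 targets of LXR 6 were called higher with GW3965, with Abca1, Abcg1 and Srebf1 having the smallest p.

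The proportions among the 9 genes were not constant. Pax5 made up 5.57% to 7.03% of their summed CPM at day 0, 1.45% to 5.36% at day 22, 0.593% to 2.20% at day 43 and 0% to 9.46% at day 70, where the highest share was again in GW3965 diet replicate 2. Cd79b went the other way at day 43, with 19% to 27.4% against 12.5% to 17.7% at day 0 and 12.3% to 15.8% at day 70. RIN was 2.6 to 9.3 at day 43 against 9.1 to 10 at the other days, and the leading Pax5 transcript has 8004 bases against 1195 for that of Cd79b; the part of RNA quality in these shares was not tested. Cd72 took 24% to 26.6% of the sum at standard diet day 70, against 5.32% to 10.9% at standard diet day 0, whereas Cd79a took 22.2% to 29.6% of it in 25 of the 26 samples and 12.5% in standard diet day 43 replicate 1.

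**Figure D4:**
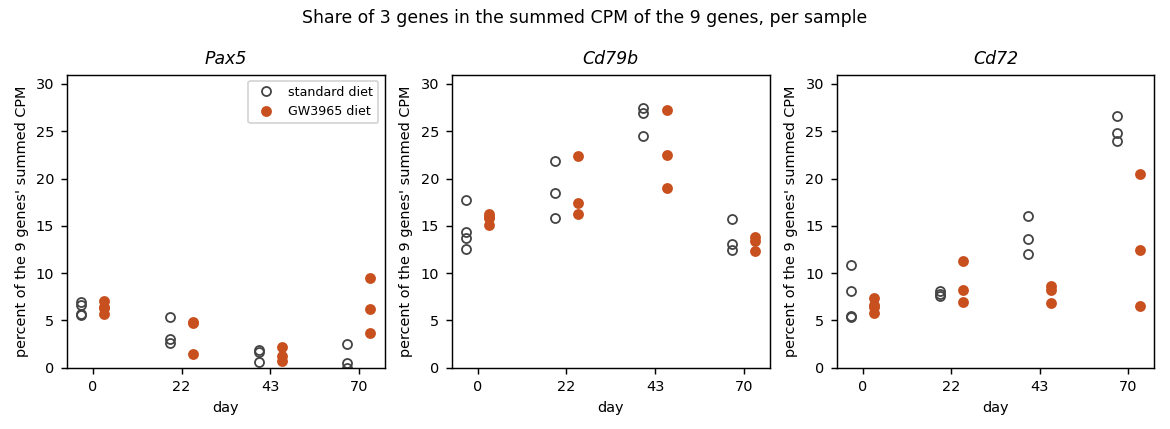
Percentage of the summed CPM of the 9 genes taken by Pax5, Cd79b and Cd72 in each sample, by day and diet. At day 43 Pax5 takes 0.593% to 2.20% and Cd79b 19% to 27.4%, against 5.57% to 7.03% and 12.5% to 17.7% at day 0, and Cd72 reaches 24% to 26.6% in the standard diet samples of day 70.

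Across the 26 samples the 9 genes followed each other closely. The log2 CPM of each gene correlated with the mean of the other 8 at r = 0.992 for Cd79a, 0.985 for Cd22, 0.906 for Cd72 and 0.859 for Pax5, with the other 5 between 0.958 and 0.976. The points are samples of 8 groups that differ in level, so the values describe likeness and carry no p. Outside the 9, the genes most like their mean over the 26 samples included H2-DMb2 (r = 0.987), H2-Ob (0.982), H2-Oa (0.981), Btla (0.980), Fcrla (0.979), H2-Eb2 (0.977), Ighd (0.976), Hvcn1 (0.972) and Cxcr5 (0.968). H2-DMb2, H2-Ob, H2-Oa and H2-Eb2 encode class II histocompatibility proteins or their peptide-loading partners, and Cxcr5 encodes the chemokine receptor that guides B cells into follicles.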

How the data were processed

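The members and gene lists were chosen with earlier results of these data known. The authors quantified paired-end reads of polyA RNA with Kallisto on the GRCm38 cDNA and deposited estimated counts (expected counts) and TPM per transcript, without normalization or a filter in the tables; the version of Kallisto is not given in the sources used here. Of 119414 transcripts, 116728 (97.8%) matched a gene of the GENCODE annotation for GRCm38, and 0.615% to 0.999% of counts per sample were left unmatched. Each gene's transcript counts were added and the sum rounded to a whole number; deposited TPM values were added in the same way.

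Testing used R 4.3.3 with edgeR 4.0.16: filterByExpr over the 8 groups (17063 genes), TMM, and the quasi-likelihood F-test with the 8 groups and the centred percentage of counts on 88 ribosomal protein genes as an additive term. The study's own model used the ribosomal RNA percentage, with its interactions with diet and time, and was not rerun here. Benjamini-Hochberg adjustment was over all genes, with a threshold of 0.05 and SE from the log2 fold change and F. There were 12 pairwise comparisons and 2 interactions. Likeness used log2 CPM with a prior count of 2. Alternatives used DESeq2 1.42.0 and further edgeR fits; scripts were tested on simulated data. The study's text describes the bulk samples both as mice of 1 experiment and as pools of biological replicates sequenced as 1 sample, and the labels do not settle which, so p-values measure the spread between samples. Depth limits the lowest values, such as the 0, 2 and 6 counts of Pax5 at standard diet day 70.

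The named genes were all 9 members, fixed pathway genes, at most 3 genes of a list with the smallest p in a comparison, and the 10 genes most like the members; 1 gene under this rule is not reported here. Genes named to identify a small count were added after their values were seen.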

Additional observations from a re-analysis of the deposited data

Results flagged for a closer look

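In the day 0 group of the standard diet, Cd22 was at 19.2 CPM in replicate 3 and at 5.23 to 6.54 CPM in the other 3 samples. On the log2 scale its gap to the next sample, divided by the range of the group, was above the 95% critical value of Dixon's test for 4 samples. The test was run on 18 sets of 4 samples (9 genes in 2 groups), and chance flags about 1 in 20. The same sample had the highest level of its group for the other 8 genes, without passing the test.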

How the results depend on the processing

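The fall of 8 of the 9 genes on the standard diet from day 0 to day 70 was within 8 to 9 genes under all 16 alternatives run for it. The numbers of genes called in other comparisons were less stable. Without the ribosomal term, the model called 5 of 9 genes higher at day 22 than at day 0 on each diet, 1 lower at standard diet day 43 than at day 22, 9 lower at standard diet day 70 than at day 43 and 4 lower at GW3965 diet day 70 than at day 43. With the RIN in place of the ribosomal term these counts were 7 at day 22 on each diet, 9 at standard diet day 70 against day 43 and 5 on the GW3965 diet. With only the groups compared and no ribosomal term they were 7 at day 22 on the standard and 8 on the GW3965 diet, 9 at standard diet day 70 against day 43, and 0 between the diets at day 70. DESeq2 called 7 genes at standard diet day 22 and 2 at GW3965 diet day 22, 8 for the interaction from day 0 to day 70 and 4 for that from day 43 to day 70. The cause of these differences was not tested. Apart from comparisons of the fit without the ribosomal term, the shares of all genes called under the alternatives of this section are not given here. Those counts therefore cannot be set against a background.

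Fits that left out 1 replicate called 1 to 8 genes at standard diet day 22 against day 0, 0 to 1 at GW3965 diet day 22 (0 without GW3965 diet day 22 replicate 2), 0 to 1 at GW3965 diet day 70 against day 0, 0 to 9 between the diets at day 70, 0 to 9 for the interaction from day 0 to day 70 and 0 to 2 for that from day 43 to day 70 (2 without GW3965 diet day 70 replicate 3, 1 without standard diet day 43 replicate 1). A replicate block called 2 genes at standard diet day 22 and 8 between the diets at day 70; same-numbered samples had correlations of -0.37 to 0.201 over 13 pairs, so that they share only a number. Chosen after seeing the data, a fit without the 2 libraries of RIN under 7 called 3 genes at standard diet day 22 and 2 at GW3965 diet day 22, and a fit without the 6 samples of day 43 called 5 between the diets at day 70. Over the 2016 fold changes of single genes under alternatives, 93 changed sign, all in comparisons in which no gene had been called; 1 of these was called (Tnfrsf13c at GW3965 diet day 70 against day 0, without GW3965 diet replicate 2). Another scaling (RLE) and no filter on low counts moved none of the counts of genes called.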
